A study of Mus musculus with 20 samples.

Results

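The genes described are 43 genes of DNA replication, chosen by name, from the proteins that mark and open an origin to the enzymes that supply nucleotides, and their levels were followed in effector T cells from 4 sites of the same disease. All 43 had a probe on the array, among 20886 genes with a named probe, and 36 of them were bright enough to be tested, among 8057 genes tested in all. The test took a gene once its probe stood well above background on 4 or more of the 5 arrays from any site. The cells were CD45.1 donor CD8+ T cells with the OT-I transgene (C57BL/6-Tg(TcraTcrb)1100Mjb/J), a T cell receptor for a peptide of ovalbumin. All other graft cells, and the recipients, carried CD45.2. Recipients were female m-act OVA animals, 8 to 16 weeks old, whose transgene, Tg(CAG-OVA)916Jen/J on C57Bl/6, puts ovalbumin under the CAG promoter. Every recipient received 11 Gy of total body irradiation in split doses and then 3000000 marrow cells with 15000000 splenocytes. On day 4 after transplant, with lethal acute graft-versus-host disease under way, donor cells were taken from blood, liver, lung and small intestine by magnetic selection for CD45.1. Each site had 5 arrays, 20 in all, and each of 5 slides carried 1 array per site, so blood 1 and lung 1, for example, shared a slide. No label says which animal an array came from, and they name no ungrafted or irradiation-only group, so p-values measure only the spread between these arrays, and the blood cells are the reference rather than an untreated control. The question is how the replication programme of these cells in the target organs compares with that of the same kind of cells in blood.

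A cell copies its genome once per division. Origins are licensed when the origin recognition complex, Cdc6 and Cdt1 load the Mcm2 to Mcm7 helicase, and they fire when Cdc45 and the GINS complex join it. Polymerase alpha with primase then starts each strand, polymerases delta and epsilon extend it on the sliding clamp PCNA, RPA covers the unwound template, and Fen1 and Lig1 join the lagging-strand pieces. Many of these genes are transcribed as cells enter S phase, under E2F factors, and an effector CD8+ T cell that is expanding after antigen contact expresses them at high levels.

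The promoters of the members are shown first because the genes share this regulation as textbook background. RefSeq windows of GRCm38.p6, 250 bases before to 50 bases after each start, were matched to 36 of the 43 members and not to Mcm4, Gins1, Gins2, Gins4, Prim2, Pole and Rfc2. The E2F core was searched as TTTCGCGC, TTTGGCGC, TTTCCCGC, TTTGCCGC or TTCCCGCC on both strands, where matches may overlap one another. In the 300 bases 17 of 36 members (47.22%) held a match, against 4.463% of 27025 genes. Upstream of the start the shares were 30.56% of members and 3.73% of genes. The CCAAT box, searched as CCAAT on both strands, lay in the window of 61.11% of members and 41.06% of genes. The cell cycle homology region (CHR), searched as TTTGAA on both strands, lay in 13.89% and 20.23%. A match is a string of letters and not evidence of binding. The members with the most E2F core matches upstream of the start, at most 1 per functional group, are printed 5′ to 3′ on the gene's strand with the matches in capitals.
Mcm6 (chr1:128359725-128359835, minus strand, 130 to 20 bases before the start): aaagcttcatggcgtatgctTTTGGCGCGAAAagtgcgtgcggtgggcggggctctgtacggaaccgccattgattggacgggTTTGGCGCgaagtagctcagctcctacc
Cdc6 (chr11:98907993-98908040, plus strand, 158 to 111 bases before the start): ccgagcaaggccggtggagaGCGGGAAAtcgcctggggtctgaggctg
Chaf1a (chr17:56040349-56040396, plus strand, 67 to 20 bases before the start): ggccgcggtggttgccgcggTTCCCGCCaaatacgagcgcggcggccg
Gins3 (chr8:95633498-95633545, plus strand, 61 to 14 bases before the start): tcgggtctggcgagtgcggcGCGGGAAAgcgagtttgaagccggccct
Pola1 (chrX:93632266-93632313, minus strand, 158 to 111 bases before the start): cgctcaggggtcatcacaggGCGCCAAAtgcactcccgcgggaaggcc
Rfc3 (chr5:151651209-151651238, minus strand, 30 to 1 bases before the start): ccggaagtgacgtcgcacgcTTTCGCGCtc

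Mcm6 held 3 matches, a pair of which overlap, and each of the other printed promoters held 1. Among tested members with a window, 7 of 13 that held an E2F core match were lower in small intestine than in blood by the test described below, with a median difference of -0.97, and 7 of 16 that held none were lower, with a median of -0.98. Of the genes whose promoters are printed only Pola1 fell. Mcm6, Chaf1a and Gins3 did not pass the test, and Cdc6 and Rfc3 were too dim to be tested.

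Every level below is a log2 processed signal minus that array's own 75th percentile, and a difference is the difference of 5-array means with its standard error (SE) from limma. The signal at the 75th percentile was 823 to 2848 per array, between 22.64% and 38.72% of probes lay well above background, and 30 to 39 of the 43 members did. Cd3e read 4.71 to 6.53 and Cd8a 2.07 to 5.08 over the 20 arrays, and 15 or 16 of 16 CD8 T cell identity genes lay well above background on some array of every site. The mean of those 16 genes was 3.77, 3.25, 4.79, 2.96 and 4.50 on small intestine 1 to 5, against 4.20 to 4.44 over blood, 4.45 to 4.56 over liver and 3.88 to 4.41 over lung. Markers of Paneth cells, the antimicrobial secretory cells of the small intestinal crypt, averaged 4.24, 5.37, 0.95, 6.23 and -3.35 on small intestine 1 to 5 and -3.00 to -1.62 in blood. The array labelled small intestine 5 thus lacked them, while the array labelled liver 5 carried them at 2.49, against -2.55 to -2.16 on the other 4 liver arrays. These 2 arrays go against their labels in this respect. The main counts and list means that rest on them are also given without them, but the counts by role and by promoter match are not. Alveolar macrophage markers averaged 2.86, 2.88, -2.16, 5.29 and 4.26 on lung 1 to 5 and -3.21 to -1.50 in blood.

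In small intestine the replication genes lay below blood. Of 36 tested members 16 fell and 0 rose (limma, Benjamini-Hochberg adjusted p under 0.05), which is 44.4% of them, where 801 of 8057 genes (9.94%) fell and 74 (0.918%) rose. The members that fell were Cdt1, Mcm2, Mcm3, Mcm7, Mcm10, Gins1, Pola1, Pold1, Pole, Rfc4, Rpa1, Fen1, Rrm1, Rrm2, Tk1 and Dut, and each was lower on 5 of 5 slides. The slide differences come from the same arrays as the test and are not separate support for it. Among the 14 of these 16 members well above background on all 20 arrays the size ran from 1.68-fold for Cdt1 to 2.75-fold for Tk1. Mcm2 and Mcm10, at -1.84 and -1.70 on the log2 scale, include arrays on which they were not well above background, and without small intestine 4 the Mcm2 difference was -1.27 (limma, adjusted p = 0.108, and 0.0126 to 0.159 over all alternatives). With the slide as a block 20 of 36 members fell, where 13.3% of genes did. For 15 of the 36 members (41.7%) every small intestine array lay below every blood array, against 7.82% of all genes, and without the array labelled small intestine 5 this held for 18 (50%), against 15.4% of genes. Among the 15 are Pold2 and Mcm2, which were well above background on only 3 and 4 small intestine arrays. The median difference of the tested members was -0.94 and that of all tested genes -0.36, so the members lay 0.58 below the general shift. Over all 43 members, dim ones included, the median was -0.88, and 36 of 43 differences were below 0. Over all 20886 genes, dim ones included, the median was 0.13, and their share below 0 was not counted. Of 30 members well above background on all 20 arrays 14 fell, and of the other 6 tested members 2 did. In a fit of only the 4544 genes well above background on all 20 arrays, 16 of the 30 members fell, where 628 genes (13.8%) did.

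**Figure D1:**
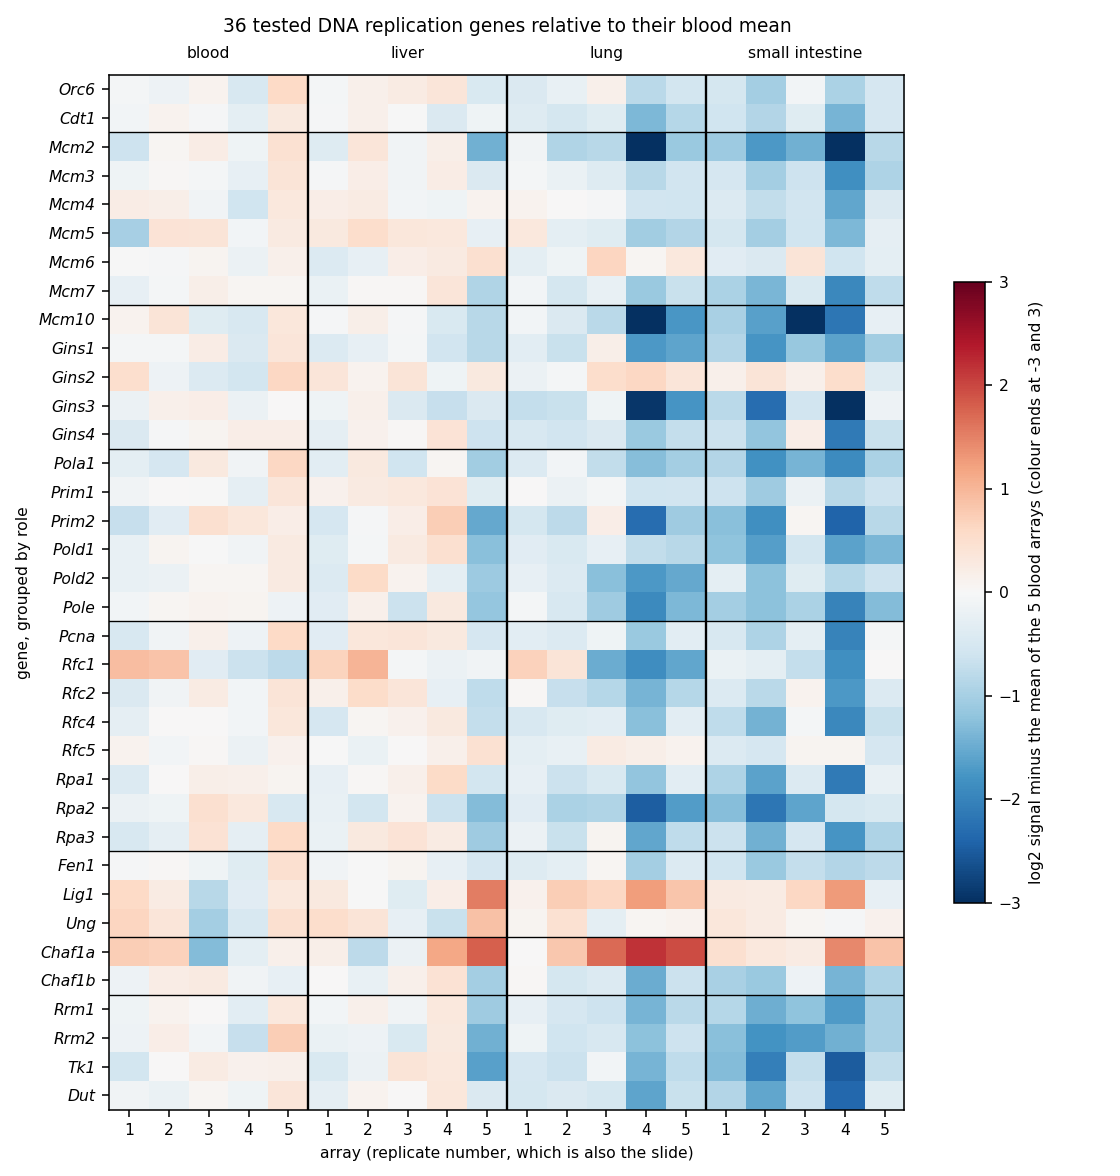
Levels of the 36 tested DNA replication genes (rows, grouped by role) on each of 20 arrays (columns, by site and replicate), as log2 signal minus the gene's mean over the 5 blood arrays, with the colour scale ending at -3 and 3. Small intestine 2 and 4 and lung 4 are the bluest columns, while the rows of Lig1 and Chaf1a are red on most lung arrays.

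Origin licensing was measurable for 2 of its 4 members, Orc6 and Cdt1, and 1 of them fell. Cdt1, which brings the helicase to the origin, read 4.27, 4.44, 4.30, 4.06 and 4.65 on blood 1 to 5 and 4.32, 4.50, 4.34, 3.91 and 4.23 on liver 1 to 5. Cdt1 read 3.97, 3.81, 3.98, 3.00 and 3.49 on lung 1 to 5 and 3.75, 3.46, 3.98, 2.94 and 3.83 on small intestine 1 to 5. For Cdt1 all 5 small intestine arrays lay below the lowest blood array. Cdt1 fell by 0.75 on the log2 scale in small intestine against blood (SE 0.24, limma, adjusted p = 0.0471) and was lower on 5 of 5 slides. Orc6, a subunit of the origin recognition complex, read 4.18, 4.09, 4.34, 3.75 and 4.82 on blood 1 to 5 and 4.18, 4.38, 4.48, 4.60 and 3.78 on liver 1 to 5. Orc6 read 3.81, 4.01, 4.38, 3.42 and 3.70 on lung 1 to 5 and 3.72, 3.21, 4.17, 3.30 and 3.73 on small intestine 1 to 5. For Orc6 small intestine 1, 2, 4 and 5 lay below the lowest blood array, and the other values fell within or above the blood range. Orc6 differed by -0.61 between small intestine and blood (SE 0.25, limma, adjusted p = 0.106), which did not pass the threshold, and was lower on 5 of 5 slides. Orc1, the largest subunit of that complex, lay well above background on 0 of 20 arrays. Cdc6, the partner of Cdt1 in loading, did so on 6 of 20, namely 3 blood, 2 liver, 0 lung and 1 small intestine arrays, so neither was tested.

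The MCM helicase, a ring built of Mcm2 to Mcm7, was measured in full, and 3 of its 6 genes fell in small intestine. Mcm2 read 2.33, 3.01, 3.17, 2.81 and 3.41 on blood 1 to 5 and 2.57, 3.30, 2.85, 3.12 and 1.51 on liver 1 to 5. Mcm2 read 2.83, 2.05, 2.12, -0.04 and 1.83 on lung 1 to 5 and 1.87, 1.22, 1.50, -1.20 and 2.12 on small intestine 1 to 5. For Mcm2 all 5 small intestine arrays lay below the lowest blood array. Mcm2 fell by 1.84 on the log2 scale in small intestine against blood (SE 0.56, limma, adjusted p = 0.0412) and was lower on 5 of 5 slides. The low value on small intestine 4 was not well above background, since Mcm2 passed that limit on 5 blood, 5 liver, 4 lung and 4 small intestine arrays. Mcm7 read 5.17, 5.36, 5.60, 5.48 and 5.49 on blood 1 to 5 and 5.22, 5.45, 5.46, 5.77 and 4.52 on liver 1 to 5. Mcm7 read 5.34, 4.90, 5.20, 4.31 and 4.74 on lung 1 to 5 and 4.47, 4.05, 4.95, 3.48 and 4.65 on small intestine 1 to 5. For Mcm7 all 5 small intestine arrays lay below the lowest blood array. Mcm7 fell by 1.10 on the log2 scale in small intestine against blood (SE 0.28, limma, adjusted p = 0.025) and was lower on 5 of 5 slides. Small intestine 2 and 4 were the lowest small intestine arrays for both Mcm2 and Mcm7. Mcm6, from the same ring and with the richest E2F core promoter of those printed, read 6.44, 6.41, 6.52, 6.27 and 6.60 on blood 1 to 5 and 6.03, 6.21, 6.66, 6.72 and 6.93 on liver 1 to 5. Mcm6 read 6.16, 6.31, 7.09, 6.50 and 6.76 on lung 1 to 5 and 6.11, 6.02, 6.83, 5.84 and 6.15 on small intestine 1 to 5. For Mcm6 small intestine 1, 2, 4 and 5 lay below the lowest blood array, and the other values fell within or above the blood range. Mcm6 differed by -0.26 between small intestine and blood (SE 0.24, limma, adjusted p = 0.394), which did not pass the threshold, and was lower on 4 of 5 slides. Its sign turned with the scaling, to 0.018 when arrays were scaled on the median of probes measured on all 20 arrays and to 0.25 when they were scaled on CD8 T cell identity genes. Mcm3 fell as well, by 0.98 (SE 0.25, limma, adjusted p = 0.0233). Mcm4 differed by -0.74 (adjusted p = 0.0584, limma) and Mcm5 by -0.75 (adjusted p = 0.0999, limma). Within the ring the measured differences therefore ran from -0.26 for Mcm6 to -1.84 for Mcm2.

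Helicase activation followed, with 2 of 5 tested genes lower. Mcm10, which helps the loaded helicase to start unwinding, read 2.38, 2.65, 1.90, 1.80 and 2.62 on blood 1 to 5 and 2.23, 2.46, 2.23, 1.82 and 1.44 on liver 1 to 5. Mcm10 read 2.19, 1.85, 1.45, -0.74 and 0.53 on lung 1 to 5 and 1.31, 0.65, -1.23, 0.11 and 2.02 on small intestine 1 to 5. For Mcm10 small intestine 1, 2, 3 and 4 lay below the lowest blood array, and the other values fell within or above the blood range. Mcm10 fell by 1.70 on the log2 scale in small intestine against blood (SE 0.53, limma, adjusted p = 0.045) and was lower on 5 of 5 slides. Mcm10 lay well above background on 5 blood, 5 liver, 4 lung and 4 small intestine arrays. Gins1, a GINS subunit, fell by 1.29 (SE 0.32, limma, adjusted p = 0.0218). Another subunit, Gins3, read 0.56, 0.88, 0.92, 0.54 and 0.73 on blood 1 to 5 and 0.61, 0.89, 0.29, 0.03 and 0.29 on liver 1 to 5. Gins3 read 0.01, 0.05, 0.59, -2.20 and -1.04 on lung 1 to 5 and -0.09, -1.56, 0.14, -2.50 and 0.58 on small intestine 1 to 5. For Gins3 small intestine 1, 2, 3 and 4 lay below the lowest blood array, and the other values fell within or above the blood range. Gins3 differed by -1.41 between small intestine and blood (SE 0.51, limma, adjusted p = 0.0735), which did not pass the threshold, and was lower on 5 of 5 slides. It was measured on 5 blood, 5 liver, 3 lung and 3 small intestine arrays. Gins2, from the same complex, read -0.28, -0.93, -1.19, -1.32 and -0.16 on blood 1 to 5 and -0.40, -0.67, -0.38, -0.91 and -0.49 on liver 1 to 5. Gins2 read -0.95, -0.83, -0.26, -0.14 and -0.40 on lung 1 to 5 and -0.63, -0.40, -0.63, -0.25 and -1.17 on small intestine 1 to 5. For Gins2 no small intestine array lay below the lowest blood array. Gins2 differed by 0.16 between small intestine and blood (SE 0.26, limma, adjusted p = 0.629), which did not pass the threshold, and was lower on 2 of 5 slides. Gins2 entered the test only through liver, being well above background on 3 blood, 5 liver, 2 lung and 3 small intestine arrays, and its difference was -0.073 with the arrays scaled on the median of all spots. Gins4 differed by -0.88 (SE 0.32, adjusted p = 0.0744, limma). Cdc45, the third part of the active helicase, was measured on 1 array of 20 and was not tested.

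The catalytic subunits of all 3 replicative polymerases fell. Pola1, the catalytic subunit of polymerase alpha, read 1.76, 1.55, 2.35, 1.97 and 2.68 on blood 1 to 5 and 1.75, 2.36, 1.47, 2.13 and 1.01 on liver 1 to 5. Pola1 read 1.66, 1.98, 1.33, 0.79 and 1.04 on lung 1 to 5 and 1.19, 0.23, 0.68, 0.17 and 1.12 on small intestine 1 to 5. For Pola1 all 5 small intestine arrays lay below the lowest blood array. Pola1 fell by 1.38 on the log2 scale in small intestine against blood (SE 0.31, limma, adjusted p = 0.0169) and was lower on 5 of 5 slides. Pole, which extends the leading strand, read 3.27, 3.42, 3.45, 3.43 and 3.19 on blood 1 to 5 and 3.01, 3.50, 2.71, 3.65 and 2.20 on liver 1 to 5. Pole read 3.29, 2.88, 2.29, 1.45 and 2.00 on lung 1 to 5 and 2.34, 2.11, 2.41, 1.34 and 2.04 on small intestine 1 to 5. For Pole all 5 small intestine arrays lay below the lowest blood array. Pole fell by 1.30 on the log2 scale in small intestine against blood (SE 0.33, limma, adjusted p = 0.0233) and was lower on 5 of 5 slides. Pold1, the lagging-strand polymerase, fell by 1.28 (SE 0.29, limma, adjusted p = 0.0169), from 5.01 ± 0.19 in blood (SD, n = 5) to 3.73 ± 0.44. It passed the threshold in 32 of 35 other settings, more than any other member. Prim1, the catalytic primase subunit, read 3.68, 3.79, 3.76, 3.51 and 4.13 on blood 1 to 5 and 3.90, 4.03, 4.08, 4.17 and 3.41 on liver 1 to 5. Prim1 read 3.79, 3.59, 3.72, 3.17 and 3.19 on lung 1 to 5 and 3.16, 2.70, 3.61, 2.94 and 3.16 on small intestine 1 to 5. For Prim1 small intestine 1, 2, 4 and 5 lay below the lowest blood array, and the other values fell within or above the blood range. Prim1 differed by -0.66 between small intestine and blood (SE 0.22, limma, adjusted p = 0.0571), which did not pass the threshold, and was lower on 5 of 5 slides. Prim2, the large primase subunit, differed by -1.26 (SE 0.49, adjusted p = 0.0883, limma). Pold2, an accessory subunit measured on 4 blood, 4 liver, 2 lung and 3 small intestine arrays, differed by -0.67 (SE 0.32, adjusted p = 0.153, limma). Pola2 and Pole2, the second subunits of polymerases alpha and epsilon, lay well above background on 0 and 7 of 20 arrays and were not tested. A second Pole probe was well above background on 0 arrays.

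Of the clamp, its loader and RPA, 2 of 8 tested genes fell, Rfc4 by 0.97 (SE 0.31, limma, adjusted p = 0.048) and Rpa1 by 1.06 (SE 0.32, limma, adjusted p = 0.0422). Rpa2, the middle subunit of the single-strand binding complex, read 0.23, 0.27, 0.90, 0.72 and -0.08 on blood 1 to 5 and 0.19, -0.15, 0.51, -0.23 and -0.90 on liver 1 to 5. Rpa2 read 0.07, -0.53, -0.49, -2.06 and -1.28 on lung 1 to 5 and -0.87, -1.76, -1.17, -0.12 and -0.04 on small intestine 1 to 5. For Rpa2 small intestine 1, 2, 3 and 4 lay below the lowest blood array, and the other values fell within or above the blood range. Rpa2 differed by -1.20 between small intestine and blood (SE 0.39, limma, adjusted p = 0.0519), which did not pass the threshold, and was lower on 4 of 5 slides. It lay well above background on 5 blood, 5 liver, 2 lung and 2 small intestine arrays, so the low values of lung and small intestine rest largely on dim spots. Rpa3, the small subunit, read 3.09, 3.28, 3.99, 3.28 and 4.16 on blood 1 to 5 and 3.37, 3.86, 3.97, 3.81 and 2.49 on liver 1 to 5. Rpa3 read 3.37, 2.89, 3.63, 2.01 and 2.79 on lung 1 to 5 and 2.91, 2.12, 3.05, 1.78 and 2.64 on small intestine 1 to 5. For Rpa3 all 5 small intestine arrays lay below the lowest blood array. Rpa3 differed by -1.06 between small intestine and blood (SE 0.35, limma, adjusted p = 0.0553), which did not pass the threshold, and was lower on 5 of 5 slides. Rpa1, Rpa2 and Rpa3 thus had differences of -1.06, -1.20 and -1.06, of which Rpa1 alone passed the threshold. Rfc5, from the loader that opens the clamp, read 4.93, 4.74, 4.87, 4.65 and 4.95 on blood 1 to 5 and 4.82, 4.62, 4.84, 4.98 and 5.28 on liver 1 to 5. Rfc5 read 4.53, 4.61, 5.07, 5.00 and 4.94 on lung 1 to 5 and 4.42, 4.33, 4.90, 4.91 and 4.32 on small intestine 1 to 5. For Rfc5 small intestine 1, 2 and 5 lay below the lowest blood array, and the other values fell within or above the blood range. Rfc5 differed by -0.25 between small intestine and blood (SE 0.20, limma, adjusted p = 0.328), which did not pass the threshold, and was lower on 3 of 5 slides. Its sign turned to 0.024 and 0.26 with the same scalings that turned Mcm6. Pcna, the clamp, differed by -0.75 (SE 0.33, adjusted p = 0.123, limma), and Rfc1 and Rfc2 by -0.60 and -0.65 (adjusted p = 0.355 and 0.172, limma). A second Rfc4 probe, well above background on 19 arrays, differed by -0.58 where the probe used differed by -0.97. Rfc3 was well above background on 0 of 20 arrays.

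Of the genes that join lagging-strand pieces or remove uracil Fen1 fell, and Lig1 and Ung did not pass the test. Fen1, the nuclease that trims the flap between fragments, read 4.63, 4.70, 4.53, 4.31 and 5.14 on blood 1 to 5 and 4.55, 4.65, 4.75, 4.42 and 4.16 on liver 1 to 5. Fen1 read 4.27, 4.38, 4.72, 3.65 and 4.25 on lung 1 to 5 and 4.06, 3.55, 3.94, 3.78 and 3.89 on small intestine 1 to 5. For Fen1 all 5 small intestine arrays lay below the lowest blood array. Fen1 fell by 0.82 on the log2 scale in small intestine against blood (SE 0.22, limma, adjusted p = 0.0284) and was lower on 5 of 5 slides. Lig1, the ligase that seals the nick after Fen1, read 5.21, 4.87, 3.79, 4.28 and 4.94 on blood 1 to 5 and 4.92, 4.60, 4.26, 4.83 and 6.15 on liver 1 to 5. Lig1 read 4.74, 5.36, 5.24, 5.88 and 5.45 on lung 1 to 5 and 4.88, 4.87, 5.24, 5.89 and 4.38 on small intestine 1 to 5. For Lig1 no small intestine array lay below the lowest blood array. Lig1 differed by 0.43 between small intestine and blood (SE 0.36, limma, adjusted p = 0.343), which did not pass the threshold, and was lower on 2 of 5 slides. The highest Lig1 values were on liver 5, small intestine 4 and lung 4. Ung, the glycosylase that removes uracil from new DNA, read 6.78, 6.51, 5.12, 5.65 and 6.63 on blood 1 to 5 and 6.67, 6.52, 5.88, 5.47 and 7.03 on liver 1 to 5. Ung read 6.22, 6.59, 5.84, 6.20 and 6.24 on lung 1 to 5 and 6.48, 6.37, 6.19, 6.10 and 6.26 on small intestine 1 to 5. For Ung no small intestine array lay below the lowest blood array. Ung differed by 0.14 between small intestine and blood (SE 0.32, limma, adjusted p = 0.728), which did not pass the threshold, and was lower on 3 of 5 slides. Blood 3 was the lowest of all 20 arrays for Ung, at 5.12, and without it the Ung difference turned to -0.11. With the arrays scaled on the median of all spots it was -0.091. Lig1 lay above 0 in every setting, from 0.20 to 0.94, and passed the threshold in 0 of 35.

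Chaf1a and Chaf1b, subunits of the factor that places histones on newly made DNA, lay on opposite sides of 0 and neither passed the test. Chaf1a read 3.81, 3.76, 1.78, 2.79 and 3.23 on blood 1 to 5 and 3.25, 2.29, 2.91, 4.24 and 4.87 on liver 1 to 5. Chaf1a read 3.08, 3.89, 4.78, 5.25 and 5.02 on lung 1 to 5 and 3.55, 3.38, 3.32, 4.51 and 3.93 on small intestine 1 to 5. For Chaf1a no small intestine array lay below the lowest blood array. Chaf1a differed by 0.66 between small intestine and blood (SE 0.50, limma, adjusted p = 0.303), which did not pass the threshold, and was lower on 2 of 5 slides. In lung Chaf1a did not pass the threshold either, at 1.33 above blood (SE 0.50, limma, adjusted p = 0.124). Lung 3, 4 and 5 and liver 5 held the 4 highest Chaf1a values. Chaf1b read 3.82, 4.20, 4.24, 3.87 and 3.74 on blood 1 to 5 and 3.99, 3.75, 4.13, 4.42 and 2.95 on liver 1 to 5. Chaf1b read 4.02, 3.43, 3.56, 2.49 and 3.33 on lung 1 to 5 and 3.01, 2.87, 3.82, 2.57 and 3.05 on small intestine 1 to 5. For Chaf1b small intestine 1, 2, 4 and 5 lay below the lowest blood array, and the other values fell within or above the blood range. Chaf1b differed by -0.91 between small intestine and blood (SE 0.30, limma, adjusted p = 0.0566), which did not pass the threshold, and was lower on 5 of 5 slides. Its second probe, well above background on all 20 arrays, differed by -0.83.

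Nucleotide supply was the group in which every tested gene fell, 4 of 4, with a median of -1.33. Of all tested genes 9.94% fell, and their median was -0.36. Among other named genes of nucleotide supply, which are not members, 1 of 5 tested fell, with a median of -0.62. The count of 4 of 4 is thus limited to these members and to the fit of all 20 arrays. Tk1, which salvages thymidine, read 4.10, 4.66, 4.90, 4.78 and 4.80 on blood 1 to 5 and 4.19, 4.47, 5.03, 4.97 and 3.02 on liver 1 to 5. Tk1 read 4.15, 4.00, 4.58, 3.25 and 3.89 on lung 1 to 5 and 3.35, 2.60, 3.92, 2.16 and 3.91 on small intestine 1 to 5. For Tk1 all 5 small intestine arrays lay below the lowest blood array. Tk1 fell by 1.46 on the log2 scale in small intestine against blood (SE 0.39, limma, adjusted p = 0.0282) and was lower on 5 of 5 slides. Rrm2, the regulated subunit of ribonucleotide reductase, read 4.45, 4.80, 4.53, 3.92 and 5.34 on blood 1 to 5 and 4.40, 4.45, 4.16, 4.90 and 3.17 on liver 1 to 5. Rrm2 read 4.48, 4.01, 4.12, 3.37 and 3.99 on lung 1 to 5 and 3.35, 2.82, 2.94, 3.16 and 3.65 on small intestine 1 to 5. For Rrm2 all 5 small intestine arrays lay below the lowest blood array. Rrm2 fell by 1.43 on the log2 scale in small intestine against blood (SE 0.31, limma, adjusted p = 0.0169) and was lower on 5 of 5 slides. Dut, which clears dUTP before it can be built into DNA, read 3.56, 3.48, 3.73, 3.55 and 4.03 on blood 1 to 5 and 3.41, 3.77, 3.68, 4.01 and 3.23 on liver 1 to 5. Dut read 3.14, 3.23, 3.13, 2.08 and 3.01 on lung 1 to 5 and 2.80, 2.10, 3.05, 1.32 and 3.32 on small intestine 1 to 5. For Dut all 5 small intestine arrays lay below the lowest blood array. Dut fell by 1.15 on the log2 scale in small intestine against blood (SE 0.32, limma, adjusted p = 0.0312) and was lower on 5 of 5 slides. Rrm1, the large subunit of ribonucleotide reductase, fell by 1.24 (SE 0.27, limma, adjusted p = 0.0169). Small intestine 2 was among the 2 lowest small intestine arrays for Tk1, Rrm2 and Dut. Tyms, which makes thymidylate anew, lay well above background on 4 of 20 arrays and was not tested.

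**Figure D2:**
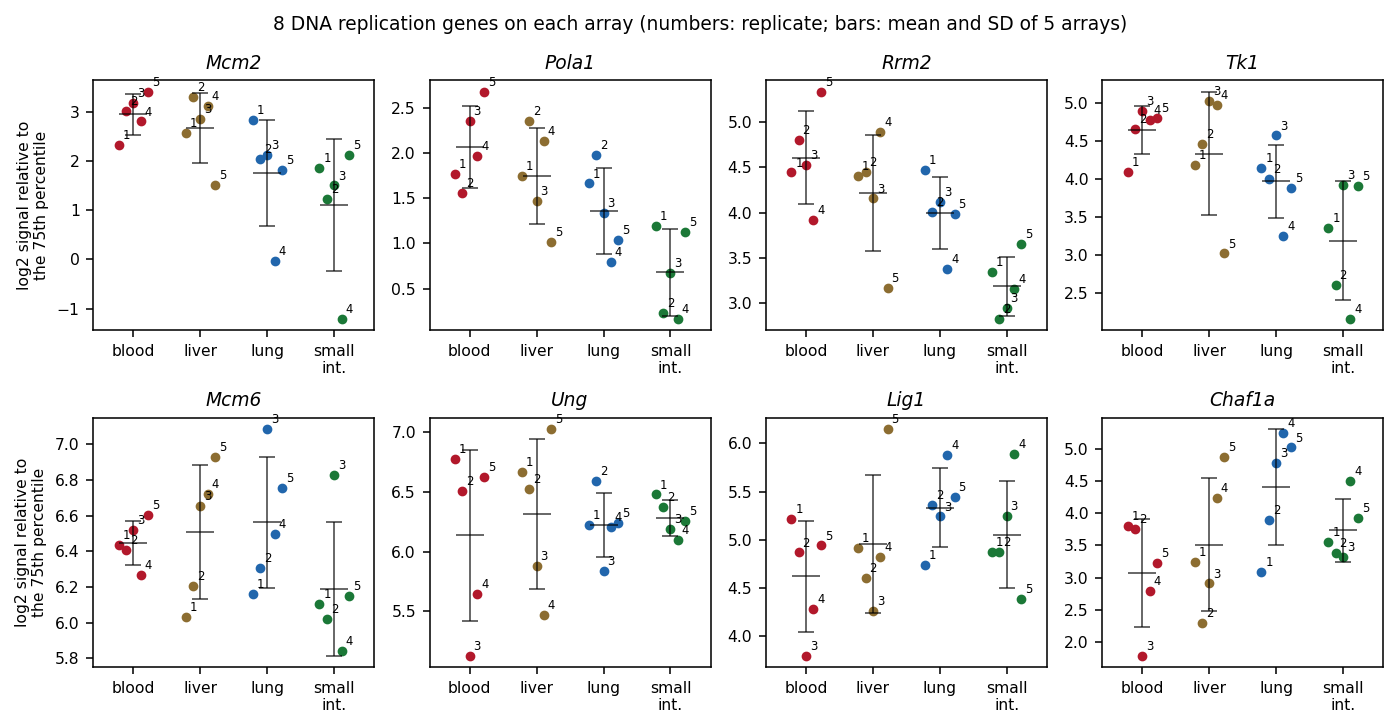
Levels of 8 members on every array by site, as log2 signal minus the array's 75th percentile, with the replicate number beside each point and bars for the mean and SD of 5 arrays. In the upper row (Mcm2, Pola1, Rrm2 and Tk1, which fell) the small intestine points lie low, and in the lower row (Mcm6, Ung, Lig1 and Chaf1a) small intestine and blood overlap. The sign of the Mcm6 and Ung differences turned with the scaling.

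In liver no replication gene was separated from blood. None of 36 members passed the threshold in liver against blood (limma, adjusted p = 0.997 to 0.999), with 0 members and 226 of 8057 genes at an unadjusted p under 0.05, and 0 of 8057 genes (0%) were called. The mean over the 43 members was 2.68, 2.76, 2.61, 2.45 and 2.97 on blood 1 to 5 and 2.57, 2.79, 2.77, 2.77 and 2.18 on liver 1 to 5. Only liver 5 lay below the lowest blood array. The slide differences ran from -0.79 to 0.31, and 2 of 5 were below 0. The -0.79 was that of the array labelled liver 5, and over slides 1 to 4 they averaged 0.10 (SD 0.18). The median member differed by -0.08, and by 0.05 with liver 5 and small intestine 5 left out, where again 0 of 36 members passed.

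Lung lay between. No member passed the threshold against blood (limma, lowest adjusted p = 0.111), where 66 of 8057 genes (0.819%) did in either direction. At an unadjusted p under 0.05 there were 13 of 36 members (36.1%) and 2722 genes (33.8%), close to the same share. For 6 members (16.7%) all lung arrays lay below all blood arrays, against 5.99% of genes. Among the 6 is Pold2, which entered the test through blood and liver and was well above background on only 2 lung arrays. The 43-member mean was 2.50, 2.45, 2.52, 1.78 and 2.09 on lung 1 to 5, and lung 2, 4 and 5 lay below the lowest blood array. The slide differences averaged -0.43 (SD 0.34) and all 5 were below 0. The median member differed by -0.61 and the median gene by -0.30. Lung 4, the lowest lung array, was also the lowest lung array for CD8 T cell identity genes (3.88) and the highest for alveolar macrophage markers (5.29), and their part in the result was not tested.

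**Figure D3:**
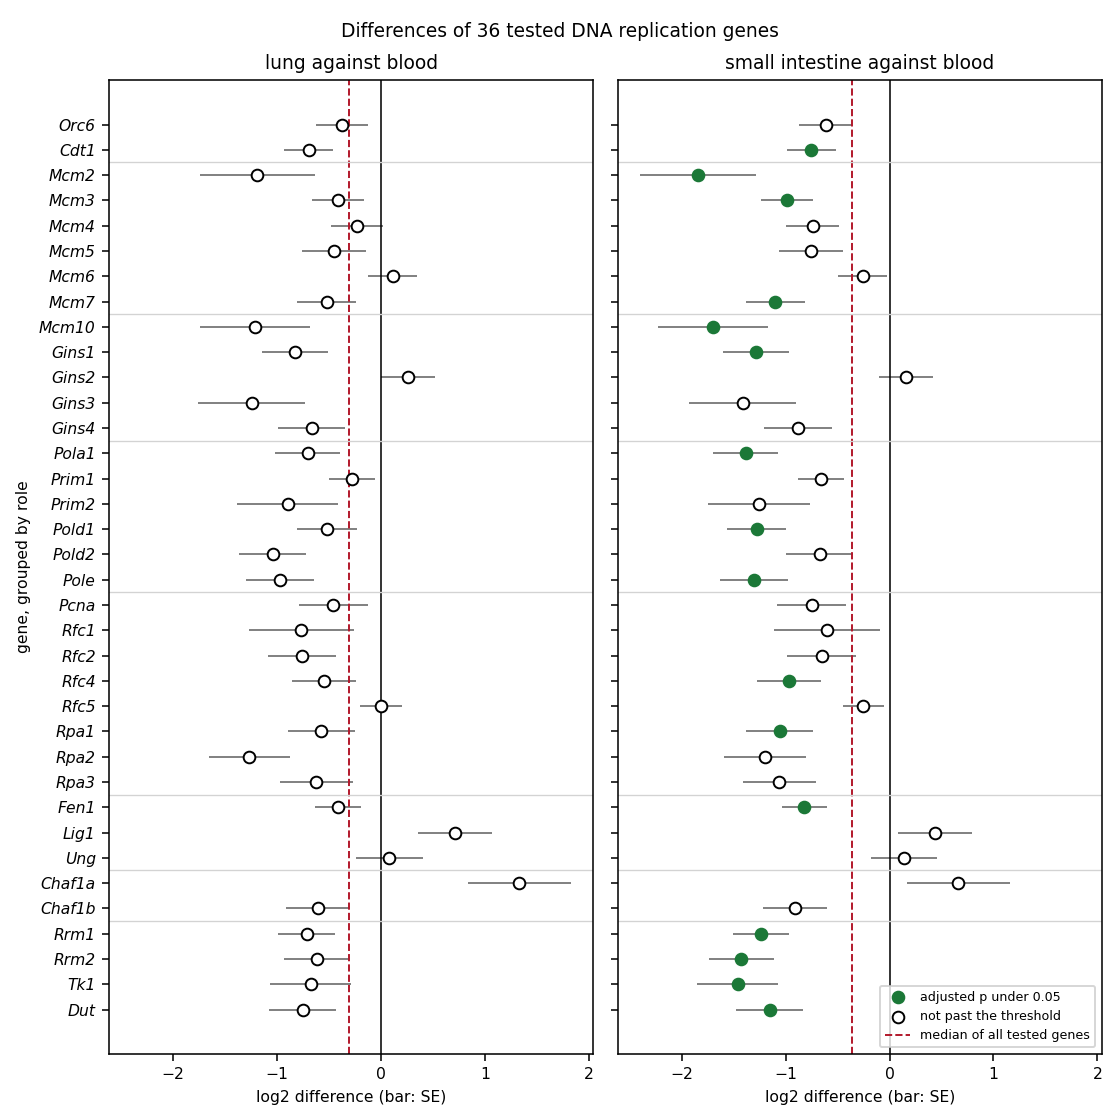
Difference of each of the 36 tested members from blood in lung (left) and small intestine (right) on the log2 scale, with bars for the SE, filled points for adjusted p under 0.05 and a dashed line at the median of all tested genes. In small intestine 16 points are filled, all left of 0, and in lung none is. The signs of Mcm6, Rfc5, Gins2 and Ung in small intestine turned under other settings.

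In small intestine the 43-member mean was 2.11, 1.67, 2.14, 1.47 and 2.11 on arrays 1 to 5, and every one lay below the lowest blood array (2.45). The slide differences from blood averaged -0.79 (SD 0.27), from -1.09 to -0.46. Against liver they averaged -0.72 (SD 0.50) and all 5 were below 0, and against lung -0.37 (SD 0.28) with 4 of 5 below 0. Over slides 1 to 4, which leave out both of these arrays, they averaged -0.78 (SD 0.30) against blood, -0.88 (SD 0.39) against liver and -0.46 (SD 0.21) against lung, all below 0. None of the members passed the threshold against liver (limma, lowest adjusted p = 0.135), where 0 of 8057 genes (0%) did, although 26 of 36 members and 1777 genes (22.1%) had an unadjusted p under 0.05. For 5 members (13.9%) all small intestine arrays lay below all liver arrays, against 1.27% of genes. With liver 5 and small intestine 5 left out this held for 20 members (55.6%), against 15.6% of genes. Against lung the lowest adjusted p of a member was 0.383 (limma), and 12 genes (0.149%) were called. There 4 members (11.1%) and 665 genes (8.25%) had an unadjusted p under 0.05. Between lung and liver the lowest adjusted p of a member was 0.283 (limma), and 23 genes (0.285%) were called. In that comparison 5 members (13.9%) and 1197 genes (14.9%) had an unadjusted p under 0.05, close to the same share. Small intestine had the lowest of the 4 site means for 28 of 36 tested members, as it did for 3354 of 8057 genes (41.6%). The order blood, liver, lung, small intestine held for 21 members (58.3%) and 1834 genes (22.8%). With liver 5 and small intestine 5 left out it held for 10 members (27.8%) and 1671 genes (20.7%), so that this order rested on these 2 arrays for the members, while small intestine was then lowest for 29 members (80.6%) and 3820 genes (47.4%). In that order only blood and small intestine were separated by a test that any member passed with all 20 arrays.

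**Figure D4:**
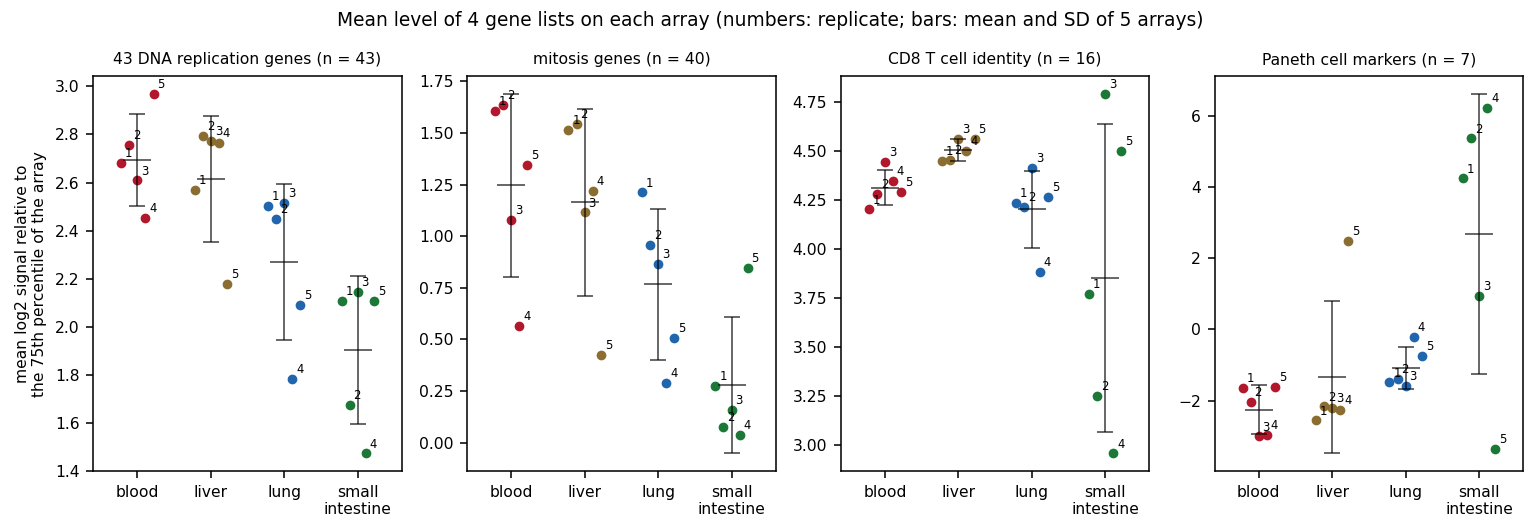
Mean log2 signal, minus the array's 75th percentile, of 4 gene lists on every array by site, with the replicate number beside each point and bars for the mean and SD of 5 arrays (each panel has its own axis). All 5 small intestine arrays lie below the lowest blood array (2.45) for the 43 replication genes, while for CD8 T cell identity genes small intestine 3 and 5 lie above all blood arrays and 1, 2 and 4 below, and for Paneth cell markers the array labelled liver 5 lies apart from the other liver arrays.

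Markers of other cells differed between the small intestine arrays. Small intestine 2 and 4, the lowest for the replication genes, were also the lowest for CD8 T cell identity genes (3.25 and 2.96) and the highest for Paneth cell markers (5.37 and 6.23). Small intestine 1, 3 and 5 had nearly equal means of the replication genes and unlike means of Paneth cell markers, as given above. The array labelled small intestine 5 is among them and goes against its label in these markers. Of 7 Paneth cell markers 7 were well above background on some small intestine array, 6 on some liver array, and 3 each in blood and lung. Of 12 small intestinal epithelium markers 7 were in small intestine, where the list ran from -3.51 to 1.62, and 1 in blood, where it ran from -3.36 to -1.77. Monocyte and macrophage markers reached 2.22 and 2.60 on small intestine 1 and 2 and were -1.71 or lower on the others, with 8 of 9 well above background on some small intestine array and 1 of 9 in blood. In bulk RNA, fewer dividing T cells among those recovered and less of each RNA per cell cannot be told apart. The part of these other cells in the result was not tested.

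The count of 16 depended on how arrays were made comparable and on single arrays. With each array scaled on the measured CD8 T cell identity genes, 0 of 36 members passed in small intestine against blood (limma, 12 at an unadjusted p under 0.05), where 0.223% of genes fell and 2043 of 8057 had an unadjusted p under 0.05. The members' differences then ran from -1.33 for Mcm2 to 1.17 for Chaf1a. The median member then differed by -0.43 and the median gene by 0.15. With scaling on the 75th percentile of probes measured on all 20 arrays 0 passed (24 members and 2278 genes unadjusted), although the median member still differed by -0.90 and the median gene by -0.32. Over all genes 15 were then lower (0.186%) and 4 higher. The median member lay 0.58 below the median gene under each of these scalings, since a scaling moves all genes of an array alike. Without small intestine 2 the count was 0 (24 members and 1914 genes unadjusted), and 0% of genes fell. Without blood 5 it was 3 (1.83% of genes), without small intestine 4 it was 4 (2.79%), and without blood 2 or blood 3 it was 5 (2.43% and 2.84%). Without blood 4 it was 10 (5.37%), and without small intestine 3 it was 23 (22.2%). The count of members thus moved together with the share of all genes called.

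Leaving out the arrays labelled liver 5 and small intestine 5 raised the count. In small intestine against blood 26 of 36 members then fell, where 1738 of 7756 genes (22.4%) fell, and the 26 included all 16 named above. The 10 added were Mcm4, Mcm5, Gins3, Gins4, Prim1, Prim2, Pcna, Rpa2, Rpa3 and Chaf1b. Gins3 and Rpa2 had entered the test through blood and liver. They were well above background on only 3 and 2 of the 5 small intestine arrays, so their calls rest partly on dim spots. In small intestine against liver 20 of 36 members fell, against 1194 genes (15.4%), where 0 had passed with both arrays in. These were Mcm2, Mcm3, Mcm4, Mcm5, Mcm7, Mcm10, Pola1, Prim1, Pold1, Pole, Pcna, Rfc4, Rpa1, Rpa3, Fen1, Chaf1b, Rrm1, Rrm2, Tk1 and Dut. The largest of these differences from liver were -2.11 for Mcm2 (SE 0.58, limma, adjusted p = 0.0226), -1.97 for Mcm10 (SE 0.55, adjusted p = 0.023) and -1.66 for Tk1 (SE 0.36, adjusted p = 0.007). Mcm6, Rfc5, Gins2, Lig1, Ung and Chaf1a passed in neither comparison.

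**Figure D5:**
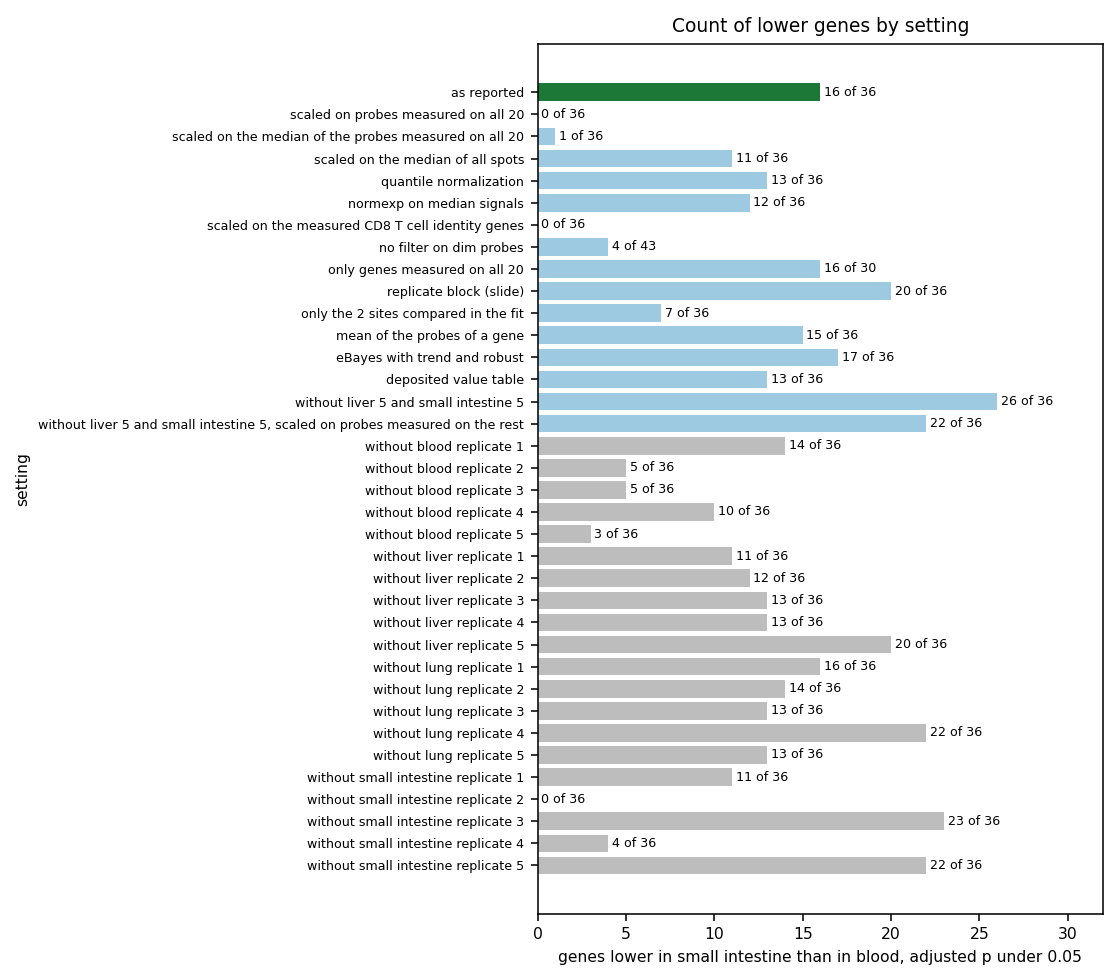
Number of replication genes lower in small intestine than in blood at adjusted p under 0.05 (horizontal axis) under each setting (vertical axis), with the number tested beside each bar; green is the value as reported, blue another way of processing and grey 1 array left out. The count runs from 0, without small intestine 2 and under 2 scalings, to 26 with liver 5 and small intestine 5 left out.

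Other genes of the pathway, 62 named by role and not among the 43, were read beside them. Of 40 that could be tested 19 fell in small intestine against blood (47.5%, limma) and 0 rose, where 9.94% of all tested genes fell. The count was 0 without small intestine 2 and with scaling on identity genes or on the 75th percentile of probes measured on all 20 arrays, and it was 24 with liver 5 and small intestine 5 left out (22.4% of all genes). By role, 3 of 6 tested genes of origin firing and its regulation fell, 8 of 14 of the fork, 1 of 5 of nucleotide supply, 3 of 6 of chromatin behind the fork and 4 of 9 of E2F and S phase control. Ccne1, the cyclin that drives entry into S phase, went from 3.42 ± 0.27 in blood to 0.77 ± 1.50 in small intestine (SD, n = 5), a difference of -2.65 (SE 0.59, adjusted p = 0.0169) by limma. E2f2, a factor that activates S phase genes, went from 3.84 ± 0.40 in blood to 1.62 ± 0.68 in small intestine (SD, n = 5), a difference of -2.22 (SE 0.55, adjusted p = 0.0229) by limma. Dscc1, part of a clamp loader for chromatid cohesion, and Gmnn, which blocks Cdt1 and so limits licensing to once per cycle, fell by 2.12 (SE 0.49, adjusted p = 0.0189) and 1.99 (SE 0.49, adjusted p = 0.0213) by limma. Tipin, which steadies the fork, and Mms22l, which works at stalled forks, differed by -0.24 (SE 0.38, adjusted p = 0.627) and 0.26 (SE 0.32, adjusted p = 0.53) by limma and did not pass. The median of the 40 was -0.98, and that of all tested genes -0.36.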

How the data were processed

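RNA of selected CD45.1+ cells from 20 samples went through successive rounds of linear amplification before Cy3 labelling and hybridisation to Agilent arrays of 1 colour, per the labels' protocols. Per the file headers, the processed signal intensity was made by Feature Extraction 11.0.1.1. Version 10.7 and Partek stand in the submitters' processing notes. The authors also deposited a table of log2 values. It differed from quantile-normalized processed signal by a median of 6.31e-05, and its columns each have a median of 8.05. Selection on 1 surface marker can leave RNA of other cells in the signal.

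Control spots (1377 of 44397) and 24 non-uniform spots were left out, 1 spot was saturated, and a probe's spots were averaged. Symbols came from RefSeq accessions and a GRCm38.p6 gene table (27508 of 39429 probes had 1 symbol). The array design uses another build, so no probe coordinates are given. The brightest probe stood for the 5512 genes with several probes, 4 members among them, so levels of different genes are not compared. Log2 intensity minus the 75th percentile of the array was tested with limma 3.58.1 in R 4.3.3, 1 coefficient per site, 16 residual degrees of freedom, two-sided, Benjamini-Hochberg within each of 6 contrasts at 0.05. The procedure was tested on simulated data. For the 7 untested members no lower bound of a fold could be given.

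The members, gene lists and tests were chosen with earlier results of these data known. Members with values on every array are the 2 with the largest and the 1 with the smallest difference between small intestine and blood in each of 8 role groups (all members in groups of 3 or fewer). Named pathway genes are the 4 largest called differences and, among the brightest, the 2 smallest differences. Named mitosis genes are the 3 largest differences. Promoters are up to 6, at most 1 per role group. Protein sequences were not used here. The precision is limited by 5 arrays per site. Same-numbered arrays share a slide, and their deviations from the site means correlated at -0.37 to 0.56, with 18 of 30 pairs over 0.1, among them all 6 of slide 3. Not every pair exceeded 0.1, so the fit was kept as designed, without a slide block, and the blocked count stands beside it. Alternatives were other scalings, normalizations, filters, fits and probes, the deposited table and each array left out.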

Additional observations from a re-analysis of the deposited data

Results flagged for a closer look

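Dixon's ratio was taken in 148 groups of 5 arrays (36 tested members and the 43-member mean at 4 sites). In 6 groups it set an array apart from the other 4, a share no higher than the about 1 in 20 that chance gives. All 6 were low values, most of them on small intestine 4 or lung 4. Mcm2 read -1.20 on small intestine 4, with the others between 1.22 and 2.12, and Mcm4 read 4.35 there, with the others between 5.17 and 5.50. On lung 4 Pcna read 3.96 (others 4.66 to 4.95), Rfc4 3.72 (others 4.51 to 4.68) and Dut 2.08 (others 3.01 to 3.23). Rpa1 read 4.14 on blood 1, with the others between 4.57 and 4.73.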

How the results depend on the processing

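The count of members called (adjusted p under 0.05, limma) stayed at 0 in liver against blood, lung against liver and small intestine against lung in all 35 alternatives. In lung against blood it was 2 without liver 5 and small intestine 5 and with scaling on the probes measured on the remaining arrays, and 0 in the other 34. In small intestine against blood it was 16, with 9.94% of all genes lower. There it moved by over 1.5 times under some of the settings that follow and by less under the others. The share of all genes that fell stands beside most of these counts. It was 0 (0.186%) with scaling on the 75th percentile of probes measured on all 20 arrays and 1 (1.38%) with scaling on their median. It was 0 (0.223%) with scaling on CD8 T cell identity genes and 4 (1.07%) with no filter on dim probes. It was 7 (3.7%) with only the compared sites in the fit and 26 (22.4%) without liver 5 and small intestine 5. It was 11 (5.87%) with the median of all spots, 12 (8.74%) with normexp on median signals and 13 (5.18%) with quantile normalization and with the deposited table. It was 15 (8.91%) with the mean of a gene's probes and 16 (13.8%) with only genes measured on all 20 arrays. A trended, robust fit gave 17 (10.3%), and leaving out both arrays with common scaling gave 22. Leaving out single arrays gave 0 to 23 there, with 0% and 22.2% of all genes lower. In small intestine against liver, with 0 as reported, it gave 0 to 13, where leaving out liver 5 gave 10 and small intestine 5 gave 13. That comparison gave 20 without both arrays (15.4% of all genes lower), and 12 with common scaling as well. No share of all genes stands beside the 2 in lung against blood, the 22 and 12 with common scaling, or the 10 and 13 against liver. Those counts cannot be set against the general shift here. With the slide (replicate number) as a replicate block, 20 members and 1163 genes were called in small intestine against blood, against 16 and 875 without it. The cause of these changes was not tested.

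In small intestine against blood 7 single values changed sign. Mcm6 became 0.018 and Rfc5 0.024 with scaling on the median of probes measured on all 20 arrays, and 0.25 and 0.26 with scaling on identity genes. Gins2 became -0.073 and Ung -0.091 with the median of all spots, and Ung ran from -0.11 (without blood 3) to 0.30 (without blood 1) as single arrays were left out. The all-gene median there was -0.36 as reported, and 0.15, -0.08, -0.22, -0.31, -0.32 and -0.59 with identity genes, the median of common probes, quantile normalization, normexp, common probes and the median of all spots. Pold1 passed in 32 of 35 alternatives and Cdt1 in 10. Normexp on mean signals was not run, and median signals were used instead; this scaling, the identity genes and the median of common probes were added after seeing the data. Dim probes of 7 members limit the list to 36.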

Other observations

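Genes of mitosis, a programme that follows replication, were measured on the same arrays. Of 40 with a probe 30 were tested, and 16 fell in small intestine against blood (53.3%, limma) with 0 higher and a median of -1.38, where 9.94% of all tested genes fell and their median was -0.36. The count was 0 without small intestine 2 and with scaling on identity genes or on the 75th percentile of probes measured on all 20 arrays, and it was 24 with liver 5 and small intestine 5 left out. The mean over the 40 differed by -0.97 between small intestine and blood (SD over slides 0.47) and was lower on each of the 5 slides, and it differed by -1.09 over the 4 slides other than slide 5. For Foxm1, which activates late cell cycle genes, the value differed by -2.93 (SE 0.79, adjusted p = 0.0284) by limma. Ccnb1, the mitotic cyclin B, differed by -2.32 (SE 0.48, adjusted p = 0.0169) by limma, and Kif23, a kinesin of the division furrow, by -1.96 (SE 0.44, adjusted p = 0.0169). Whether mitosis and replication genes differ from each other was not tested.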
